A study of Mus musculus with 9 samples.

Results

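The planar cell polarity (PCP) core genes were examined in RNA from the mouse cochlear duct, as a list of 10 genes given by name: Vangl1, Vangl2, Celsr1, Celsr2, Celsr3, Fzd3, Fzd6, Prickle1, Dvl2 and Ptk7. All 10 were found among the 54232 genes of the count table. The 9 libraries came from E14.5 embryos of Prdm16 cGT/+ intercrosses on the FVB/NJ background, 3 WT, 3 Prdm16 cGT/+ heterozygotes and 3 Prdm16 cGT/cGT nulls. The cGT allele is a gene trap null allele carried in the germline, so that no tissue was targeted alone, and each library held the cochlear ducts of both ears of 1 embryo. The comparison asked whether the core components of the polarity pathway were expressed at other levels when Prdm16, a transcription factor of the Kölliker's organ epithelium, was lost.

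PCP is the coordinated orientation of cells within the plane of an epithelium. In the vertebrate pathway Vangl and Prickle proteins gather at one face of a cell and Frizzled and Dishevelled proteins at the opposite face, with Celsr cadherins bridging the junction between neighbouring cells. In the cochlea the pathway is known for orienting the stereociliary bundles of hair cells and for convergent extension, the cell movement that lengthens the duct. It acts largely through where its proteins sit in the membrane, which an RNA count does not report.

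Total counts per library ran from 24095322 to 30819118. Prdm16, the targeted gene, lay at 202 ± 21 CPM (counts scaled to the size of the library, SD, n = 3) in WT, 138 ± 14.5 in heterozygotes and 23.4 ± 4.17 in nulls, so that the 3 genotypes were separate in the order of their labels. A pair of library features touched results below. In the library of null replicate 2, genes with long transcripts read low and genes with short transcripts read high, as no other library did. The summed level of 13 mesenchyme markers, none of them at 0 in all 9 libraries, was 710 CPM in WT replicate 1, 1270 CPM in WT replicate 2 and 1650 CPM in null replicate 3, against 47.3 to 148 CPM in the other 6 libraries. The fit without these 3 libraries holds 1 WT library, which is assumed to vary like the other groups, so its estimates against WT are given without a p. In a whole duct, fewer cells of a type and less RNA per cell cannot be told apart.

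Markers of other cell groups also differed between genotypes, and their part in the values of the core genes was not tested. The 11 markers of the cochlear epithelium summed to 13600 to 14800 CPM in WT, 15600 to 16500 CPM in heterozygotes and 15300 to 20200 CPM in nulls, of which Oc90, a gene of the roof epithelium, gave 53.2% to 66.1%. Without Oc90 the sums were 6360 to 6750 CPM in WT and 5290 to 6850 CPM in nulls and overlapped. Single markers differed, with null means at 105% of WT for Epcam, 101% for Cdh1, 52.8% for Tecta, 192% for Tectb and 142% for Otx2. Of these 11 markers, 10 had a log2 fold change above 0 in nulls against WT, beside 51.9% of all genes. By the edgeR rule given below 1 was called higher and 1 lower, beside 1.71% of all genes. Of the 15 marker genes of Kölliker's organ, which include Prdm16, 11 were called lower in nulls against WT by the edgeR rule given below and 1, Nrxn3, was called higher, where 1.71% of all genes tested were called. Their sum was 4680 to 5680 CPM in WT and 2580 to 2880 CPM in nulls with Tecta, which gave 54% to 57.7% of it, and 2080 to 2450 CPM and 1190 to 1270 CPM without it. Of 15 prosensory markers 3 were called higher in nulls, with sums of 1120 to 1210 CPM in WT and 1260 to 1550 CPM in nulls. The 5 melanocyte markers were lower in nulls than in WT without overlap, as were 8.95% of all genes. Each was at an unadjusted p below 0.05 by edgeR, where 5.76% of all genes were lower at that level, and none was called. Their sums were 55.2 to 132 CPM in WT and 12.2 to 43 CPM in nulls. The genes named here were chosen after their values were seen.

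In WT ducts, 9 of the 10 core genes had a mean above 5 RPKM and 7 of them above 10 RPKM (CPM per kilobase of exon), which is the scale used to compare one gene with another. Ptk7, a receptor-like pseudokinase that takes part in Wnt signalling and polarity, had the highest level. It read 66.7, 69.4 and 68.6 RPKM in the 3 WT embryos, above 97.6% of all genes tested. Celsr1 followed at 54.7, 51.3 and 51.9 RPKM, and Vangl2 at 30.9, 29.6 and 29.5 RPKM. These 3 genes were separate from each other and from every other core gene in all 3 WT embryos.

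Celsr2 (18.0 ± 0.926 RPKM, SD, n = 3), Fzd3 (16.6 ± 1.78), Dvl2 (14.6 ± 0.154) and Fzd6 (14.3 ± 1.51) formed a middle group. Within it the WT ranges of Celsr2 and Fzd3 overlapped, as did those of Dvl2 and Fzd6, so these neighbours did not differ beyond their spread. Prickle1 (6.80 ± 1.11 RPKM) and Vangl1 (5.02 ± 0.271 RPKM) lay lower, and their WT values did not overlap each other. Celsr3 was nearly absent at 0.107 ± 0.063 RPKM, higher than only 2.62% of the genes tested, from 21 to 64 counts in any one library. The order of the middle group depended on the length used. With the longest transcript in place of all exon bases, Dvl2 read 18.3 RPKM and moved above Fzd3 at 16.7 RPKM, while the same 7 genes stayed above 10 RPKM.

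**Figure D1:**
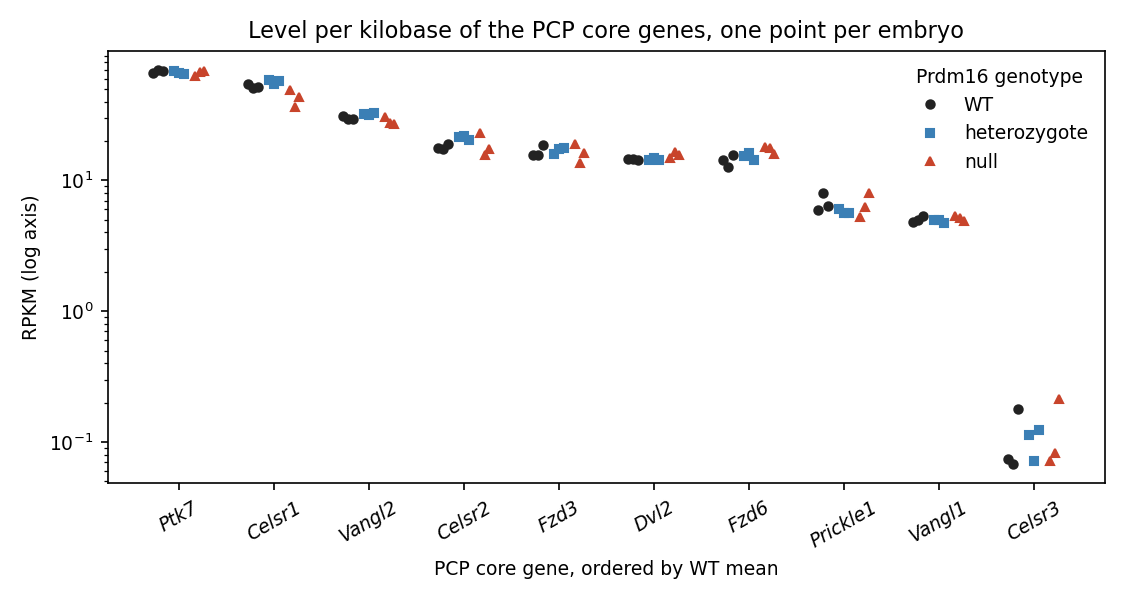
Level per kilobase of exon (RPKM, log axis) of the 10 PCP core genes, ordered by their WT mean. Each point is 1 embryo, with circles for WT, squares for heterozygotes and triangles for nulls. Ptk7 lay highest at 68.2 RPKM in WT and Celsr3 lowest at 0.107 RPKM, and the 3 genotypes lay close together for every gene on this scale.

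The Vangl and Celsr paralogs were at unequal levels. Vangl2 exceeded Vangl1 by 5.55 to 6.48 times per length in the WT embryos, and Celsr1 exceeded Celsr2 by 2.72 to 3.11 times. Fzd3 and Fzd6, the Frizzled receptors that act together in hair bundle orientation, were at nearly equal levels, with a WT ratio of Fzd3 to Fzd6 of 1.17 ± 0.0763 (SD, n = 3). Among the paralogs outside the 10, Fzd7 was at 75.6 ± 2.13 RPKM in WT, above both Frizzled genes of the list. Dvl3 and Dvl1 were at 29.4 ± 1.09 and 21.2 ± 0.248 RPKM, each above Dvl2. Prickle2 and Prickle3 were at 2.27 ± 0.313 and 2.54 ± 0.22 RPKM, below Prickle1 in every WT embryo. The values of these 5 paralogs are given because they share a family with a core gene, and they were chosen after their values were seen.

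RefSeq promoter sequence (GRCm38.p6) was matched for 6 of the 10 genes, with 7 entries because Prickle1 has a pair of start sites. The 250 bases before the start are shown for the gene of the highest level and the gene of the lowest, to set their base composition side by side. Both are written 5′ to 3′ on the gene's own strand with CG dinucleotides in capitals. The Ptk7 promoter is at chr17:46629505-46629754 on the minus strand and the Celsr3 promoter at chr9:108825795-108826044 on the plus strand. The bases after the RefSeq start were found at the start of a GENCODE M21 transcript for Ptk7 and not for Celsr3. In GENCODE the Celsr3 gene starts downstream of the window, at 108826320.
Ptk7: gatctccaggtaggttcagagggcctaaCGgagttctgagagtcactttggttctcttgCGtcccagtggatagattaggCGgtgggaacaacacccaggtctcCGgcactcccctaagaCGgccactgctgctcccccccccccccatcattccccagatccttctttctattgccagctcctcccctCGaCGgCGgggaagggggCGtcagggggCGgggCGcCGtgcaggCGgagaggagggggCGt
Celsr3: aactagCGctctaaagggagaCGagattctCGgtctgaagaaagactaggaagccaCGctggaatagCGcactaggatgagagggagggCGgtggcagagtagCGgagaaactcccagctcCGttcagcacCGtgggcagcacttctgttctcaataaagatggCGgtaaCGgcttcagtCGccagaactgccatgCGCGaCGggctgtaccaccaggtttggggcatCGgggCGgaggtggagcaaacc
The Ptk7 promoter held 14 CG dinucleotides and the Celsr3 promoter 17, and 2 genes cannot show whether CG count and level are related. Across the 7 entries the count ran from 13 to 34, against a median of 6 over 32851 mouse promoters of the same length, of which 92.1% hold at least 1 CG. The letters TATAAA, searched on both strands, were in none of the 7 entries and in 12.4% of all promoters.

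No core gene passed the test between nulls and WT. With edgeR's quasi-likelihood test, a gene was called when its Benjamini-Hochberg adjusted p was below 0.05 and its log2 fold change beyond 0.5 in either direction. By this rule 0 of the 10 were called, where 1.71% of the 17168 genes tested were called. At an unadjusted p below 0.05 there were 2 of 10, against 12.2% of all genes, and DESeq2 also called 0 of 10 (3.29% of the genes it tested) with 2 at an unadjusted p below 0.05. The median log2 fold change of the 10 was -0.0088, beside 0.0097 for all genes, with 5 genes above 0, as were 51.9% of all genes, and 5 below. The 95% interval of the log2 fold change lay inside -0.5 to 0.5 for 8 of the 10, and reached beyond it for Celsr1 and Celsr3. The intervals of 2 genes, Celsr1 and Fzd6, left out 0. The p-values measure the spread between embryos.

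**Figure D2:**
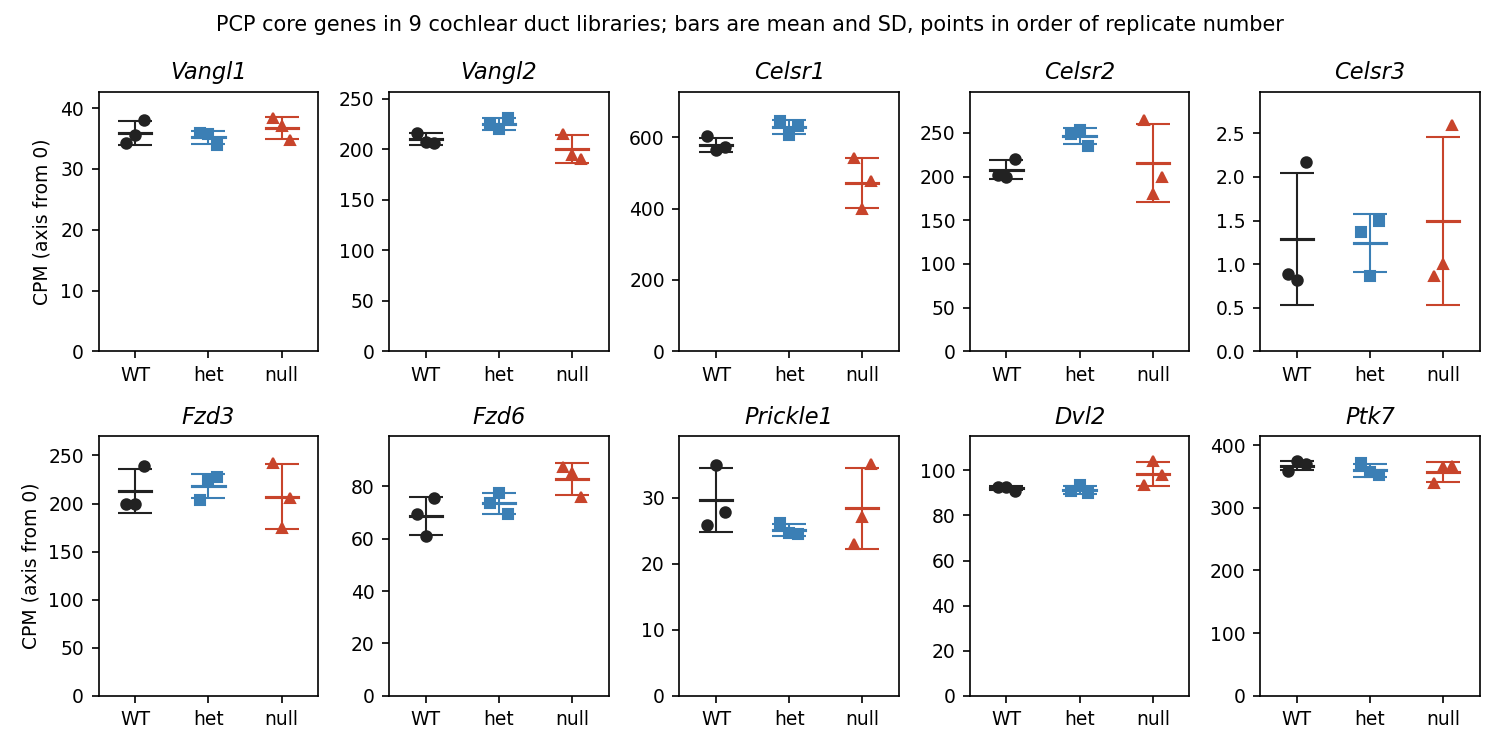
CPM of each PCP core gene in the 9 cochlear duct libraries by Prdm16 genotype, with every vertical axis starting at 0. Points are embryos in order of replicate number, and the horizontal bar and whiskers are the mean and SD of 3 embryos. Nulls lay apart from WT for Celsr1 (399 to 541 against 564 to 602 CPM), Fzd6 (76.0 to 87.3 against 61.1 to 75.6 CPM) and Dvl2.

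The null values did not overlap the WT values for 3 of the 10 genes, where 19% of all genes tested had such a separation. The first was Celsr1 (ENSMUSG00000016028, chr15:85898929-86033777, minus strand, mm10), an atypical cadherin that holds PCP complexes together across cell junctions and is needed for regular hair bundle orientation. It read 602, 564 and 571 CPM in WT, 646, 607 and 631 CPM in heterozygotes and 541, 399 and 476 CPM in nulls. All 3 nulls were below all 6 other embryos, and null replicate 2 was the lowest. The null mean was 81.6% of the WT mean, with a log2 fold change of -0.30 (SE 0.116, 95% interval -0.57 to -0.03, edgeR adjusted p = 0.35). The difference did not pass the test.

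Celsr1 has a transcript of 10879 bases, and the length pattern of null replicate 2 is given beside its value, with no cause tested. Over the 318 genes with transcripts above 10000 bases and a mean above 10 CPM, the median of log2 CPM after subtraction of each gene's mean over the 9 libraries was -0.458 in null replicate 2 and between -0.007 and 0.108 in the other 8 libraries. For the 1653 genes with transcripts up to 2000 bases it was 0.274 in null replicate 2. Celsr1 itself stood at -0.472 there. Without null replicate 2 the log2 fold change of Celsr1 against WT was -0.19, and with a correction for transcript length in each library, added after the data were seen, it was -0.16 (edgeR adjusted p = 0.319).

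Celsr2, Celsr3 and Fzd3 belong to the same length class. In null replicate 2 Celsr2 and Fzd3 stood at -0.294 and -0.285 on the same centred log2 scale, each its lowest value of the 9 libraries. Celsr3 stood at -0.282 there and was lower in 4 other libraries.

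**Figure D3:**
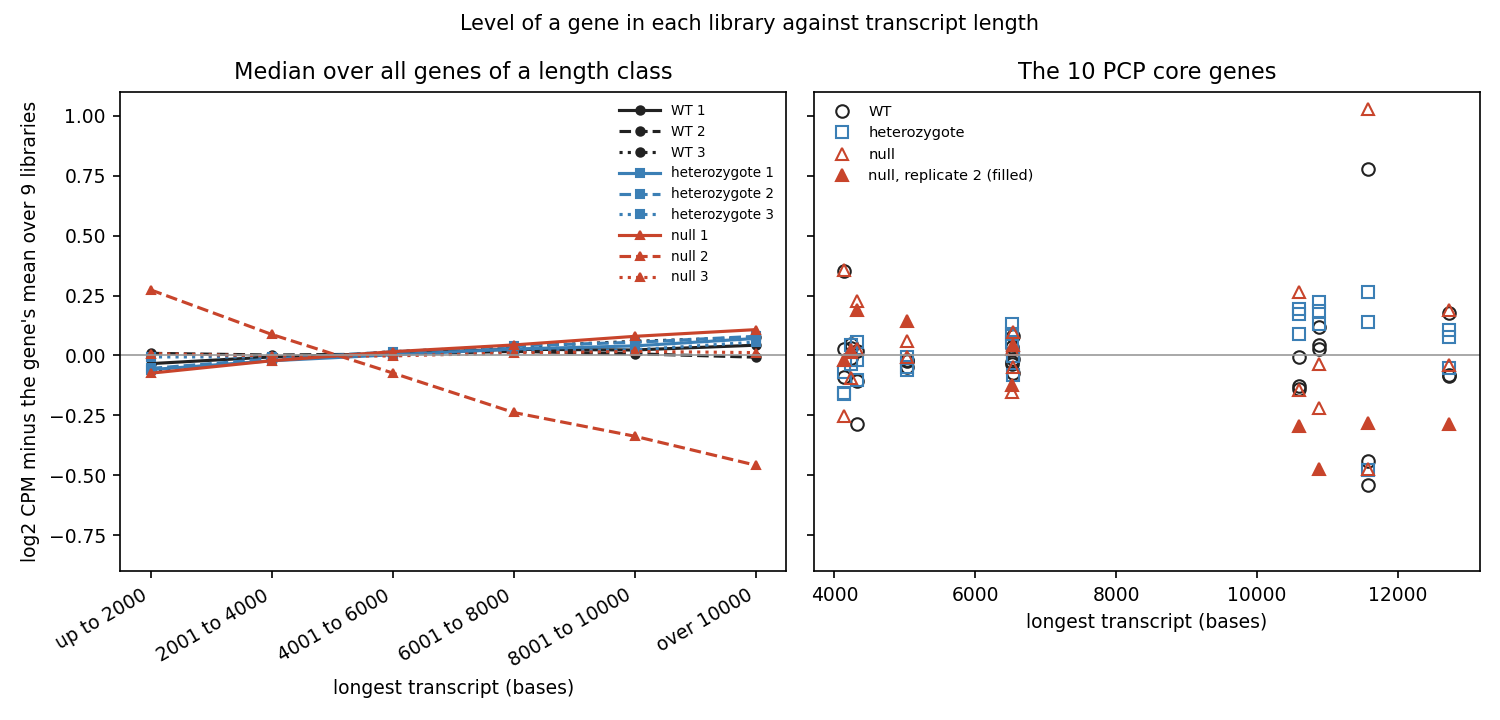
Log2 CPM minus the gene's mean over 9 libraries, against the length of the longest transcript in bases. Left, the median over all genes of each length class, 1 line per library, where null replicate 2 falls from 0.274 to -0.458 with length. Right, the 10 PCP core genes in each library with null replicate 2 filled. Above 10000 bases are Celsr2, Celsr1, Celsr3 and Fzd3, whose filled points lie lowest except for Celsr3, at -0.282 with 4 libraries lower.

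The ratio of Celsr1 to Celsr2 within a library compares genes of nearly the same transcript length. Per length it was 3.11, 2.94 and 2.72 in WT, 2.72, 2.51 and 2.80 in heterozygotes, and 2.13, 2.32 and 2.49 in nulls. The 3 nulls were below all 6 other embryos, the highest null at 2.49 just under the lowest heterozygote at 2.51. Null replicate 2 lay between the other nulls on this measure. How often other gene pairs separate in this way was not counted, and the part of the length pattern was not tested. The ratio was chosen after the values were seen and is given as a description, with no test. Fzd3 to Fzd6, which differ in transcript length, had nulls apart from WT, at 1.04, 0.769 and 1.02 against 1.08, 1.23 and 1.19. The heterozygotes, at 1.04, 1.08 and 1.23, overlapped WT and reached the nulls. The ratio of Vangl2 to Vangl1 was 6 ± 0.465 in WT and 5.56 ± 0.197 in nulls (SD, n = 3), with overlapping embryos.

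Fzd6 (ENSMUSG00000022297, chr15:39006034-39038188, plus strand), a Frizzled receptor, had with Celsr1 the smallest unadjusted p values of the 10 by edgeR and by DESeq2, and which of the pair came first changed with the setting. It read 69.3, 61.1 and 75.6 CPM in WT, 73.7, 77.6 and 69.6 CPM in heterozygotes and 87.3, 85.1 and 76.0 CPM in nulls. The lowest null was just above the highest WT embryo, and the heterozygotes overlapped both. The null mean was 121% of the WT mean, with a log2 fold change of 0.27 (SE 0.0995, 95% interval 0.03 to 0.50, edgeR adjusted p = 0.326). It did not pass the test. The lowest value was in WT replicate 2, 1 of the 3 libraries rich in mesenchyme markers, and without these 3 libraries the log2 fold change was 0.19.

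Dvl2 (ENSMUSG00000020888, chr11:70000595-70012301, plus strand) encodes a cytoplasmic Dishevelled protein that is recruited by Frizzled receptors. It was the steadiest core gene in WT, at 92.5, 92.8 and 91.0 CPM, a coefficient of variation of 1.05%. Heterozygotes read 90.8, 93.5 and 90.1 CPM and nulls 93.4, 104 and 97.9 CPM. The nulls were above every WT embryo by a small margin, with a log2 fold change of 0.09 (95% interval -0.07 to 0.25, edgeR adjusted p = 0.665). Of the 6298 exon bases of Dvl2, 1151 are shared with Acadvl on the opposite strand. The strand setting of the counts is not given in the sources used here, so reads of these 2 genes may not be separated.

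The other 7 core genes overlapped between nulls and WT. Vangl2, whose loss is known to misorient hair bundles and shorten the cochlea, read 216, 207 and 206 CPM in WT and 215, 194 and 190 CPM in nulls (log2 fold change -0.08, 95% interval -0.25 to 0.10, edgeR adjusted p = 0.745). After the length correction it was 0.0038. Vangl1 (ENSMUSG00000027860, chr3:102153583-102204693, minus strand) differed by 0.03 on the log2 scale (interval -0.19 to 0.24) and turned to -0.0045 without null replicate 1. Ptk7 (ENSMUSG00000023972, chr17:46564471-46629504, minus strand) differed by -0.045 (interval -0.21 to 0.12). These intervals leave out a change as large as the threshold of 0.5 in either direction.

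Celsr2 read 202, 200 and 220 CPM in WT and 265, 180 and 200 CPM in nulls, so that the nulls spanned the WT range on both sides. Its log2 fold change was 0.05 (interval -0.28 to 0.37), -0.13 without null replicate 1 and 0.17 without null replicate 2. Fzd3 (ENSMUSG00000007989, chr14:65192449-65262463, minus strand) had the same shape, with 200, 200 and 239 CPM in WT and 242, 174 and 206 CPM in nulls. Its log2 fold change was -0.0455 (interval -0.35 to 0.26) and 0.07 without null replicate 2. For both genes null replicate 1 was the highest null and null replicate 2 the lowest.

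Prickle1 (ENSMUSG00000036158, chr15:93499114-93595891, minus strand) is the cytoplasmic partner of Vangl proteins. It read 25.8, 35 and 27.9 CPM in WT, 26.1, 24.6 and 24.5 CPM in heterozygotes and 23.0, 27.1 and 35.1 CPM in nulls. Its highest values were in null replicate 3 and WT replicate 2, the libraries with the highest sums of mesenchyme markers, whereas WT replicate 1, the third library rich in them, had the lowest WT value. Without the 3 libraries the log2 fold change was -0.15, and the part of these cells in the value was not tested. The log2 fold change against WT was -0.06 (SE 0.183, interval -0.49 to 0.36) and turned to 0.08 without WT replicate 2.

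Celsr3 (ENSMUSG00000023473, chr9:108826320-108852969, plus strand), known for roles in axon guidance, read 0.889, 0.824 and 2.17 CPM in WT and 0.867, 1.00 and 2.60 CPM in nulls. Its highest values were in WT replicate 3 and null replicate 3, with a coefficient of variation of 58.7% in WT and 64.7% in nulls. The interval ran from -1.09 to 1.45 on the log2 scale. The 12 neuron markers, none at 0 in all libraries, summed to 317 to 367 CPM in WT and 273 to 350 CPM in nulls, of which Isl1 alone gave 232 to 268 and 175 to 273 CPM. The sum was lowest of all 9 libraries in null replicate 3. Without Isl1 the sum was 80.6, 84.8 and 99.4 CPM in WT and 77, 67 and 97.4 CPM in nulls, highest in replicate 3 of both as Celsr3 was. In heterozygotes it was 74.4, 79.6 and 71.1 CPM, lowest in replicate 3. Celsr3 read 1.37, 0.865 and 1.5 CPM there, highest in replicate 3, so the match did not hold in heterozygotes. Of the 12 markers, 7 were highest among WT in WT replicate 3, 8 were highest among nulls in null replicate 3, and 5 (Nefl, Nefm, Elavl4, Snap25 and Dcx) were highest in both. Gap43 was lowest among WT in WT replicate 3, Isl1, Ntrk3 and Neurod1 were lowest among nulls in null replicate 3, and Neurod1 had no count in WT. The part of neurons in the Celsr3 values was not tested.

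**Figure D4:**
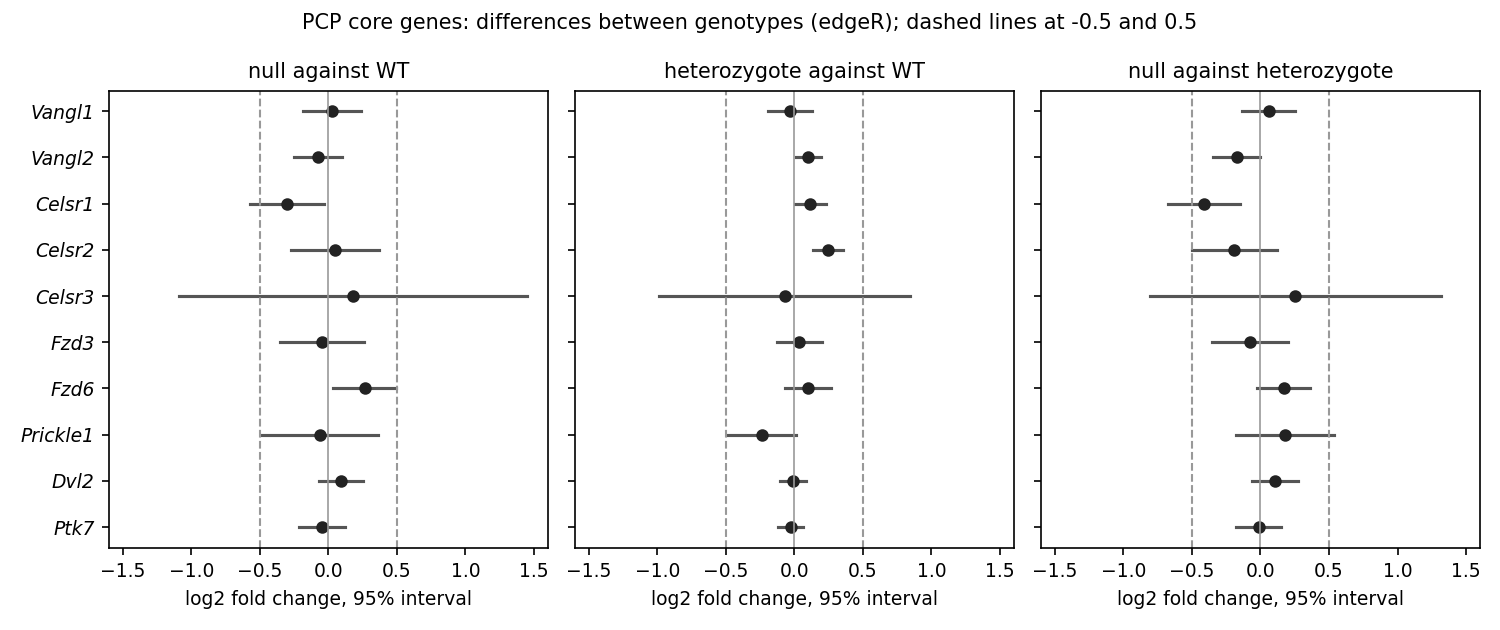
Log2 fold change (point) and 95% interval (line) of each PCP core gene from edgeR in the 3 genotype comparisons, with dashed lines at the threshold of -0.5 and 0.5. In nulls against WT the intervals of 8 of 10 genes lay between the dashed lines, in heterozygotes against WT those of 9 and in nulls against heterozygotes those of 6. Celsr3 had the widest interval in each panel.

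Heterozygotes against WT asked whether 1 copy of the gene trap allele went with other levels. None of the 10 was called, where 0.151% of 17269 genes were called. At an unadjusted p below 0.05 there were 3 of 10, beside 13.1% of all genes, and DESeq2 gave 0 called, against 1.75% of its genes, and 3 at that level. The 3 of edgeR were Celsr2, Vangl2 and Celsr1, and those of DESeq2 were Celsr2, Celsr1 and Prickle1. The heterozygote values of Celsr2, Vangl2 and Celsr1 did not overlap WT, all of them higher in the heterozygotes, where 8.97% of all genes were higher without overlap. The median log2 fold change of the 10 was 0.0125 beside 0 for all genes. The intervals of 9 of 10 lay inside -0.5 to 0.5, with Celsr3 outside.

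Celsr2 (ENSMUSG00000068740, chr3:108390851-108415552, minus strand), the paralog that acts with Celsr1 at epithelial junctions, had the smallest p. It read 202, 200 and 220 CPM in WT and 249, 253 and 235 CPM in heterozygotes. Every heterozygote was above every WT embryo, by a log2 fold change of 0.24 (SE 0.0491, 95% interval 0.13 to 0.35, edgeR adjusted p = 0.0715). DESeq2 gave an adjusted p of 0.00267, and neither tool's estimate reached the fold threshold of 0.5. Over the settings tried the log2 fold change stayed between 0.16 and 0.29. Apart from the fit with 1 WT library, the adjusted p ran from 0.000167 (no filter on low counts) to 0.831 (all 9 libraries in one fit). The lowest estimate was without the 3 libraries rich in mesenchyme markers and the highest was without WT replicate 3.

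Vangl2 (ENSMUSG00000026556, chr1:172000960-172028444, minus strand) was at 210 ± 5.63 CPM in WT and 225 ± 5.65 CPM in heterozygotes (SD, n = 3), a log2 fold change of 0.10 (interval 0.01 to 0.19, edgeR adjusted p = 0.326). Celsr1 was at 579 ± 19.9 and 628 ± 19.9 CPM, a log2 fold change of 0.12 (interval 0.0047 to 0.23, adjusted p = 0.357). Both differences were small beside the threshold and did not pass the test. All 13 mesenchyme markers had a log2 fold change below 0 in the same comparison, each at an unadjusted p below 0.05, beside 7.32% of all genes lower at that level. None was called, and their sums were 148 to 1270 CPM in WT and 74.1 to 136 CPM in heterozygotes. Blood markers (67.9 to 192 against 25.3 to 46.7 CPM) and melanocyte markers (55.2 to 132 against 20.6 to 40.4 CPM) also summed lower in heterozygotes. The sums of epithelial, prosensory and glia markers were higher there without overlap. The part of these cells in the values of the core genes was not tested. Without the 3 libraries rich in mesenchyme markers the log2 fold changes of Vangl2 and Celsr1 were 0.13 and 0.14.

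Of the other core genes, Prickle1 had the lowest estimate in heterozygotes, -0.24 (interval -0.49 to 0.02, edgeR adjusted p = 0.411). The heterozygotes at 24.5 to 26.1 CPM overlapped WT at 25.8 to 35 CPM, and without WT replicate 2 the estimate was -0.0985. Ptk7, Vangl1, Dvl2 and Fzd3 had estimates between -0.0304 and 0.035 and intervals no wider than -0.19 to 0.20. Fzd6 was at 0.0992, and at -0.037 without the libraries rich in mesenchyme markers.

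Nulls and heterozygotes both carried the trap allele, and their comparison shared its libraries with the others. The paper states that littermates were used, but the labels do not give the litter of a library, and no fit took it into account. None of the 10 was called, where 0.615% of 17067 genes were called. At an unadjusted p below 0.05 there were 2 of 10 beside 11.4% of all genes, with 1 by DESeq2, which called 0 of the 10 and 1.89% of all its genes. Celsr1 and Vangl2 were lower in nulls without overlap, as were 9.09% of all genes. The median log2 fold change of the 10 was 0.0239, beside 0.0119 for all genes.

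Celsr1 had the largest estimate, -0.41 (SE 0.116, 95% interval -0.68 to -0.15, edgeR adjusted p = 0.233). DESeq2 gave an adjusted p of 0.0268, and the estimate was below the fold threshold in size. It was -0.30 without null replicate 2, -0.26 with the length correction (adjusted p = 0.146) and -0.41 without the libraries rich in mesenchyme markers. The last fit leaves out null replicate 3 and keeps null replicate 2 with its length pattern, and it was not combined with the length correction. Over all settings the adjusted p ran from 0.0268 to 0.662, the highest without heterozygote replicate 3, and every estimate kept its direction.

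Vangl2 differed by -0.17 (interval -0.35 to -0.0022, edgeR adjusted p = 0.437) and by -0.0969 with the length correction. Fzd6 differed by 0.17 (interval -0.03 to 0.36) and Celsr2 by -0.19 (interval -0.50 to 0.12), each with overlapping embryos. Fzd3 was at -0.0768, and at 0.038 without null replicate 2. The intervals of 6 of 10 lay inside -0.5 to 0.5, the others being Celsr1, Celsr2, Celsr3 and Prickle1.

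For each core gene, the gene whose centred log2 CPM over the 9 libraries was nearest was found among 10355 other genes above a mean of 10 CPM. For Celsr3, itself below that mean, there were 10356. Dvl2 was nearest to Wdr18, at a root mean square difference of 0.0195 log2 units, Ptk7 to Ganab at 0.0257, Vangl1 to Magi1 at 0.0293 and Vangl2 to Med23 at 0.0334. Celsr1 was nearest to Plekhh1 at 0.0353, Celsr2 to Zfhx2 at 0.0421, Fzd6 to Rgmb at 0.0462 and Fzd3 to Zbtb26 at 0.0469. Prickle1 and Celsr3 had no gene as near, with Oxct1 at 0.0811 and Egr1 at 0.368. No core gene was the nearest gene of another. These distances describe 9 libraries that share genotypes, cell makeup and the length pattern of null replicate 2.

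The wider pathway was taken from 6 further lists of 59 genes, of which 56 were tested. In nulls against WT 2 of the 56 were called, both higher, beside 1.71% of all genes. At an unadjusted p below 0.05 there were 7 higher and 3 lower of the 56, beside 6.47% higher and 5.76% lower of all genes. The medians of the 6 lists lay between -0.11 and 0.10 on the log2 scale. In heterozygotes against WT 0 of the 56 were called by edgeR, beside 0.151% of all genes, and 1 by DESeq2, beside 1.75%. At an unadjusted p below 0.05 there were 13 by edgeR, beside 13.1% of all genes. In nulls against heterozygotes 1 was called, beside 0.615%.

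Among ligands and co-receptors, Cthrc1 and Wnt4 rose in 12 genes tested. Cthrc1, a secreted glycoprotein that promotes Wnt signalling through Frizzled and Ror2 receptors in the polarity branch, read 19.4, 19.3 and 15.8 CPM in WT, 21.4, 21.9 and 20.8 CPM in heterozygotes and 32.7, 41.0 and 46.1 CPM in nulls. Every null was above the other 6 embryos. Its log2 fold change was 1.13 against WT (SE 0.153, edgeR adjusted p = 0.0125) and 0.90 against heterozygotes (SE 0.133, adjusted p = 0.032). When 1 library was left out, the estimate against WT stayed between 1.02 and 1.26 and the call held without each null in turn, and was lost without WT replicate 1 (adjusted p = 0.0697), WT replicate 2 (0.0755) or WT replicate 3 (0.0526). Against heterozygotes the estimate stayed between 0.785 and 1.03, and the call held without null replicate 1 or null replicate 3 and was lost without each of the other 4 libraries (adjusted p from 0.0686 to 0.223).

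Wnt4, a secreted Wnt ligand, read 67.1, 61.7 and 69.0 CPM in WT, 76.6, 77.6 and 78.7 CPM in heterozygotes and 89.8, 104 and 92.2 CPM in nulls. The 3 genotypes did not overlap. Its log2 fold change against WT was 0.53 (SE 0.0848, edgeR adjusted p = 0.0251), just past the fold threshold, and 0.29 against heterozygotes (adjusted p = 0.217). The call against WT held without null replicate 3 and was lost without any other library, with estimates of 0.47 to 0.57 and adjusted p of 0.168 at most. Without null replicate 2 it was lost on the fold threshold alone, at 0.47 (adjusted p = 0.035).

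Wnt5a, the ligand most often tied to cochlear PCP, read 221, 193 and 182 CPM in WT and 156, 133 and 130 CPM in nulls. Its groups did not overlap, with a log2 fold change of -0.52 (SE 0.103, edgeR adjusted p = 0.0566), which did not pass, while DESeq2 gave an adjusted p of 7.34e-04. Without the libraries rich in mesenchyme markers the estimate was -0.33. With edgeR on all 9 libraries in one fit the adjusted p was 0.0438, and Wnt5a was also called with no filter on low counts. It was named after its values were seen.

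Among 9 core paralogs tested none was called. Fzd7, the Frizzled gene of the highest level here, read 353, 334 and 341 CPM in WT and 447, 445 and 434 CPM in nulls, with a log2 fold change of 0.36 (SE 0.0679, edgeR adjusted p = 0.0457), under the fold threshold. The edgeR adjusted p was 0.0429 without null replicate 2 and ran from 0.0543 to 0.272 without any other library. With the replicate block it was 0.185. In heterozygotes it read 381, 440 and 446 CPM. Every heterozygote and every null was above every WT embryo.

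None was called in the other 4 lists. Of 6 genes of the Fat and Dachsous branch, Fat1, a large protocadherin, read 718, 704 and 761 CPM in WT and 628, 382 and 653 CPM in nulls. Its estimate was -0.40 (edgeR adjusted p = 0.459), and -0.18 without null replicate 2, where it was lowest.

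Of 13 genes of cell-intrinsic hair bundle polarity, Pard3, a polarity scaffold, stood at -0.29 (edgeR adjusted p = 0.183). Of 12 cytoplasmic partners, Smurf1, a ubiquitin ligase that acts on Prickle1, stood at 0.13 (adjusted p = 0.569). Of 4 effectors of ciliated epithelia, Cplane1 stood at -0.205 (adjusted p = 0.55) and at -0.08 without null replicate 2.

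**Figure D5:**
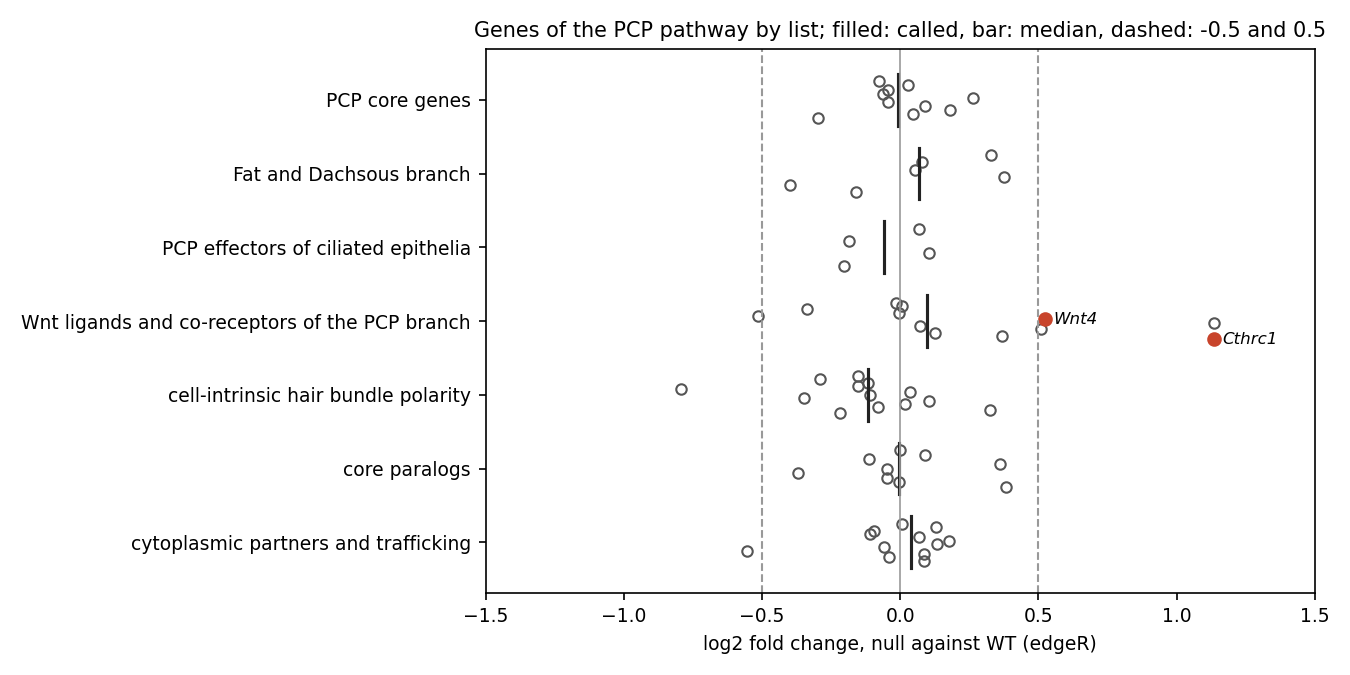
Log2 fold change in nulls against WT (edgeR) of each tested gene in the PCP core list and 6 lists of the wider pathway, 1 circle per gene. Filled circles passed the call and the bar is the list's median. Cthrc1 at 1.13 and Wnt4 at 0.53 were called, and no core gene lay beyond the dashed lines at -0.5 and 0.5.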

How the data were processed

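The authors microdissected E14.5 cochlear ducts, prepared TruSeq mRNA libraries, sequenced 50-base single reads on an Illumina HiSeq and aligned them to mm10 with STAR. The submitters' processing notes also name cutadapt 1.13 and HTSeq 0.6.1p1. The strand setting and annotation release are not given in the sources used here. The deposited values are whole-number counts of reads for each Ensembl gene, with no normalization, and 54165 of 54232 genes were named from GENCODE M21 on the same build.

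Genotypes were taken from the labels, which give no batch. Counts were compared with edgeR 4.0.16 in R 4.3.3 (TMM, filterByExpr with a minimum count of 10, quasi-likelihood test), fitting the 6 libraries of a genotype pair together, with p-values adjusted over all genes tested. Log2 CPM used a prior count of 2, and RPKM used the exon bases of each gene. DESeq2 1.42.0, other filters, all 9 libraries in one fit, a replicate block and each library left out were alternatives. The fits without the mesenchyme-rich libraries and with a transcript length correction (a lowess curve per library) were chosen after the data were seen. The edgeR step was tested on simulated data. Libraries of one genotype differed by more than sampling noise (chi-square per gene of 5.7 to 68.8).

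The core genes and lists were chosen with earlier results of these data known. Genes named were the 10 core genes, each core gene's nearest gene, Prdm16, and from each further list those called in any comparison, or otherwise the one with the smallest p in nulls against WT. 1 further list and its genes are not reported here. Other names are said to have been chosen later.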

Additional observations from a re-analysis of the deposited data

How the results depend on the processing

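No PCP core gene was called in any of the 3 comparisons under any alternative run. Of 447 log2 fold changes of core genes under alternatives, 416 kept their direction and 31 reversed, and all of them were of genes that were not called. In nulls against WT the reversals were Vangl2 (0.0038) and Fzd3 (0.1122) with the length correction and Vangl1 (-0.0053) and Celsr3 (-1.2023) without the mesenchyme-rich libraries. In heterozygotes against WT they were Celsr3 (0.0144) with the replicate block and Fzd3 (-0.131), Fzd6 (-0.037) and Dvl2 (0.0086) without the mesenchyme-rich libraries. In nulls against heterozygotes they were Fzd3 (0.1036) with the length correction and Celsr3 (-0.3987) without the mesenchyme-rich libraries. With 1 library left out, nulls against WT ran from -0.0045 to 0.0757 for Vangl1, -0.4754 to 0.7883 for Celsr3, -0.2405 to 0.0842 for Prickle1, -0.1706 to 0.0731 for Fzd3 and -0.1309 to 0.1664 for Celsr2. Heterozygotes against WT ran from -0.0096 to 0.1276 for Fzd3, -0.0655 to 0.0129 for Vangl1, -0.3074 to 0.5321 for Celsr3 and -0.0271 to 0.0017 for Dvl2. Nulls against heterozygotes ran from -0.0331 to 0.0262 for Ptk7, -0.2004 to 0.038 for Fzd3, -0.4048 to 0.52 for Celsr3 and -0.0015 to 0.3111 for Prickle1.

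The 2 genes of the further lists called in nulls against WT became 4 with DESeq2 (Cthrc1, Wnt4, Wnt5a and Wnt11), 3 (Cthrc1, Wnt4 and Wnt5a) with no filter on low counts or all 9 libraries in one fit, 0 with the replicate block and 0 to 3 with 1 library left out. The 0 in heterozygotes against WT became 1 (Dact1) with DESeq2 or no filter on low counts and 0 to 2 with 1 library left out. The 1 in nulls against heterozygotes became 0 with the replicate block, 2 (Cthrc1 and Dact1) without the mesenchyme-rich libraries, and 0 to 2 with 1 library left out. Wnt11 and Dact1 are named here because of these calls, after their values were seen. The cause was not tested. Over all genes, the 293 called in nulls against WT were 618 with DESeq2, 476 with no filter, 468 with all 9 libraries in one fit and 133 with the block. The 26 in heterozygotes against WT were 319, 684, 0 and 197, and 40 with the stricter filter. The 105 in nulls against heterozygotes were 354, 366, 164 and 52. The correlations of same-numbered libraries were 0.00534, -0.142 and -0.284 for nulls and WT, 0.202, 0.112 and -0.0581 for heterozygotes and WT, and 0.139, -0.117 and 0.0826 for nulls and heterozygotes. In no comparison were all 3 above 0.1, so the block pairs numbers only.

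Celsr3, at 21 to 64 counts per library, is the one core gene whose interval reached beyond 0.5 in both directions in every comparison. With 3 embryos per genotype, an adjusted p above 0.05 does not show equal levels.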

Other observations

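Cthrc1, called in nulls, lies 38744 bases from Fzd6 on chromosome 15. This neighbourhood was looked at after both values were seen. Of the 12 other genes tested within 1 Mb of Fzd6, 9 had a log2 fold change above 0 in nulls against WT, beside 51.9% of all genes, and 1 was called by edgeR, beside 1.71%. It was Rims2, a presynaptic scaffold gene 160073 bases from Fzd6, at a log2 fold change of 1.06 (SE 0.155, adjusted p = 0.0177). Between Cthrc1 and Rims2, Dcaf13 stood at 0.03, Gm9522 at 0.12 and Slc25a32 at 0.22, none of them called. Klf10 had the largest estimate of the window, 1.41 (SE 0.463, edgeR adjusted p = 0.25), and was not called. Lrp12, farther from Fzd6, stood at -0.10. Gm26704, which shares 152 exon bases with Fzd6 on the opposite strand, stood at 1.12 (SE 0.406, adjusted p = 0.309) from 304 counts in all 9 libraries together.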
